A study of Mus musculus with 12 samples.

Results

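Zmynd8, the gene that encodes RACK7, was followed in cultured mouse astrocytes together with genes for the proteins it is known to work with. Its relative Zmynd11, the zinc-finger genes Zfp532, Zfp592 and Zfp687, and the histone demethylase genes Kdm5a, Kdm5b and Kdm5c completed the set. These 8 genes were taken by name from the 18903 genes of the count table, under a rule that uses none of their values. The set was nevertheless chosen with earlier results of these data known. All 8 were present and passed the filter on low counts. Astrocytes had been grown from the brains of WT mice (hGFAP-cre::Rack7+/+) and of Rack7-cKO mice (hGFAP-cre::Rack7 fl/fl) at postnatal days 1, 6 and 8 (P1, P6 and P8). Both genotypes therefore carried the Cre, which is driven by the human GFAP promoter and is active in neural stem cells of the embryo, so recombination is limited to cells that descend from those with Cre activity. The methods state that meninges were stripped off, that the cells were grown on a coated surface, and that they were shaken to take out microglia and oligodendrocytes. There were 2 libraries for each genotype and age, 12 in all, which the labels call biological repeats without naming animals, litters or sexes, so p-values measure the spread between these libraries.

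ZMYND8 and ZMYND11 are chromatin readers. Each carries a PHD finger, a bromodomain and a PWWP domain that contact modified histone tails, and a MYND zinc finger that binds other proteins. ZMYND8 forms a complex with the zinc-finger proteins ZNF532, ZNF592 and ZNF687, whose mouse genes are Zfp532, Zfp592 and Zfp687, and it also contacts the NuRD complex, which removes acetyl groups and moves nucleosomes. The KDM5 enzymes take methyl groups off lysine 4 of histone H3, a mark of promoters and, in its lower methylation states, of enhancers. KDM5C, encoded on the X chromosome, has been found with RACK7 at enhancers, and Kdm5d is its counterpart on the Y chromosome.

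In the floxed mice, exons 3 and 4 of Zmynd8 lie between the recombination sites, counted on transcript ENSMUST00000109269. In the GENCODE annotation of GRCm38 the gene (ENSMUSG00000039671) lies on the minus strand at chr2:165784152-165899016, exon 3 at chr2:165852868-165852879 and exon 4 at chr2:165852000-165852148. The coding sequence from the start codon through both exons into exon 5 is shown first, with exons 3 and 4 in capitals, because these are the bases a recombined allele lacks. The second sequence is exon 2 joined directly to exon 5, with the first stop codon in frame in capitals.
Zmynd8 from start codon into exon 5: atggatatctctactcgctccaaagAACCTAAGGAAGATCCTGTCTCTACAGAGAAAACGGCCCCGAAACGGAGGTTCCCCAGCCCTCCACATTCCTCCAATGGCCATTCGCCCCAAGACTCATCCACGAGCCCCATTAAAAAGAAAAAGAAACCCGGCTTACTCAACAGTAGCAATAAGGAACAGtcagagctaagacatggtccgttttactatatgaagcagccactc
Zmynd8 exon 2 joined to exon 5: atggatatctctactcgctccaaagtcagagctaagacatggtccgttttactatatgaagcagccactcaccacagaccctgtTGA

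The 2 exons hold 12 and 149 bases. Together these 161 bases are 2.6% of the 6188 bases of the transcript, and their number leaves a remainder of 2 on division by 3, so their loss shifts the reading frame. Read from the annotated start codon, the joined sequence reaches a stop after 28 codons, against 1235 codons in the full sequence. Of the 11 annotated protein-coding transcripts of Zmynd8, 2 hold both exons and 10 hold exon 4 with the boundaries given above, 1 holds an exon that overlaps exon 4 with another boundary, and 0 lack every base of both exons. The deposited value of a gene is one count over its exons, so it is dominated by sequence outside the floxed bases and does not check the deletion.

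Library totals lay between 54413504 and 89183250 counts, and 17938 genes were tested in edgeR with a quasi-likelihood test on all 12 libraries. Levels are given as CPM (read counts scaled to a common library size) after TMM normalization, and differences as log2 fold changes with their standard errors (SE). A gene is said to have risen or fallen where the p-value after Benjamini-Hochberg adjustment over all genes tested was below 0.05. An exact permutation test of 2 against 2 libraries cannot give a p below 0.333. All 8 astrocyte markers examined were counted in every group. Their summed level was 1291 to 2128 CPM at P1 and P6 and in the WT-labelled libraries at P8, and 640 to 653 CPM in the P8 libraries labelled cKO. The 9 microglia markers had a higher sum than the astrocyte markers in every group, from 2457 CPM in P8 WT to 5007 CPM in P8 cKO. The 6 fibroblast markers also had a higher sum, except in P1 WT (398 to 412 CPM), and reached 25753 CPM in P8 WT. The cultures thus held RNA of other cell types, and such sums do not give shares of cells. Xist, the X-inactivation RNA that marks cells with 2 X chromosomes, had 54156 to 91017 counts in each of the 4 P6 libraries and 11 to 77 in each of the other 8. Kdm5d, Uty and Eif2s3y of the Y chromosome had 0 counts in all 4 P6 libraries, Ddx3y had at most 4, and Kdm5d had 2334 to 4386 counts in each of the others. Comparisons of P6 with another age, differences of genotype effects included, therefore cannot be told apart from the sex-chromosome make-up of the cultures, whereas both labels of 1 age had the same make-up. In these bulk samples, fewer cells of a type and less RNA per cell cannot be told apart.

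Zmynd8 was higher in the libraries labelled cKO than in those labelled WT at all 3 ages. The P1 libraries held 136.3 and 136.0 CPM under the label WT and 212.9 and 215.5 CPM under the label cKO. At P6 the pair labelled WT had 113.8 and 116.0 CPM, and the pair labelled cKO 241.5 and 230.5 CPM. At P8 the values were 99.98 and 104.2 CPM for WT and 160.4 and 171.3 CPM for cKO. No library labelled cKO overlapped with any labelled WT, of the same age or another, and in the order P6 cKO, P1 cKO, P8 cKO, P1 WT, P6 WT, P8 WT no neighbouring groups overlapped either. The log2 fold change of cKO over WT was 0.65 at P1 (SE 0.047, adjusted p = 3.16e-05), 1.04 at P6 (SE 0.047, adjusted p = 4.97e-07) and 0.70 at P8 (SE 0.047, adjusted p = 3.78e-06). These are 1.57-fold, 2.05-fold and 1.62-fold differences. Averaged over the ages, the log2 fold change was 0.80 (SE 0.027, adjusted p = 6.49e-08).

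A count of the targeted gene that is higher under the label cKO does not serve as a check of the labels, and the libraries are called by their labels for this reason. RACK7 protein and its binding to chromatin, which bear on the deletion more directly, were not analysed here. As set out with the exon sequences, a count over the whole gene cannot tell a recombined transcript from an intact one, and no values by exon were examined. Of 2 noncoding genes inside the Zmynd8 span on the other strand, BC046401 had 6 to 55 counts per library and Gm11465 4 to 39. Over the 12 libraries their totals were 331 and 199 counts, against 129463 for Zmynd8. Of the 5 neural stem cell markers listed, the 3 in the table (Pax6, Nes and Prom1) had a summed level that was also higher under the label cKO. It was 910 to 920 CPM against 1046 to 1077 at P1, 874 to 931 against 2063 to 2087 at P6, and 151 to 165 against 515 to 526 at P8, with none of the 3 at 0 in any group. Nes made up most of the sum, and Prom1 had lower means for cKO at every age (24.0, 19.0 and 5.31 CPM for WT and 15.9, 14.5 and 1.67 CPM for cKO). Pax6 had nearly equal means at P1, of 31.2 CPM for WT and 32.05 CPM for cKO. Stem cells were not alone in this. The sums of the neuron, microglia, and ependymal and choroid plexus markers were also higher under the label cKO at P6 and P8, though not at P1. Single markers did not all go this way. Stmn2 gave most of the neuron sum, and Foxj1 most of the ependymal and choroid plexus sum. Tmem119, Ttr and Ccdc153 had lower means for cKO at P6 and P8. So did Tubb3, Csf1r, C1qb and Trem2 at P6 and Tmem212 at P8. For the 3 of 8 neuron markers in the table, the P6 sum was 115.5 to 124.7 CPM for WT and 231.5 to 248.7 CPM for cKO. The part of any of these cell types in the Zmynd8 difference was not tested.

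**Figure D1:**
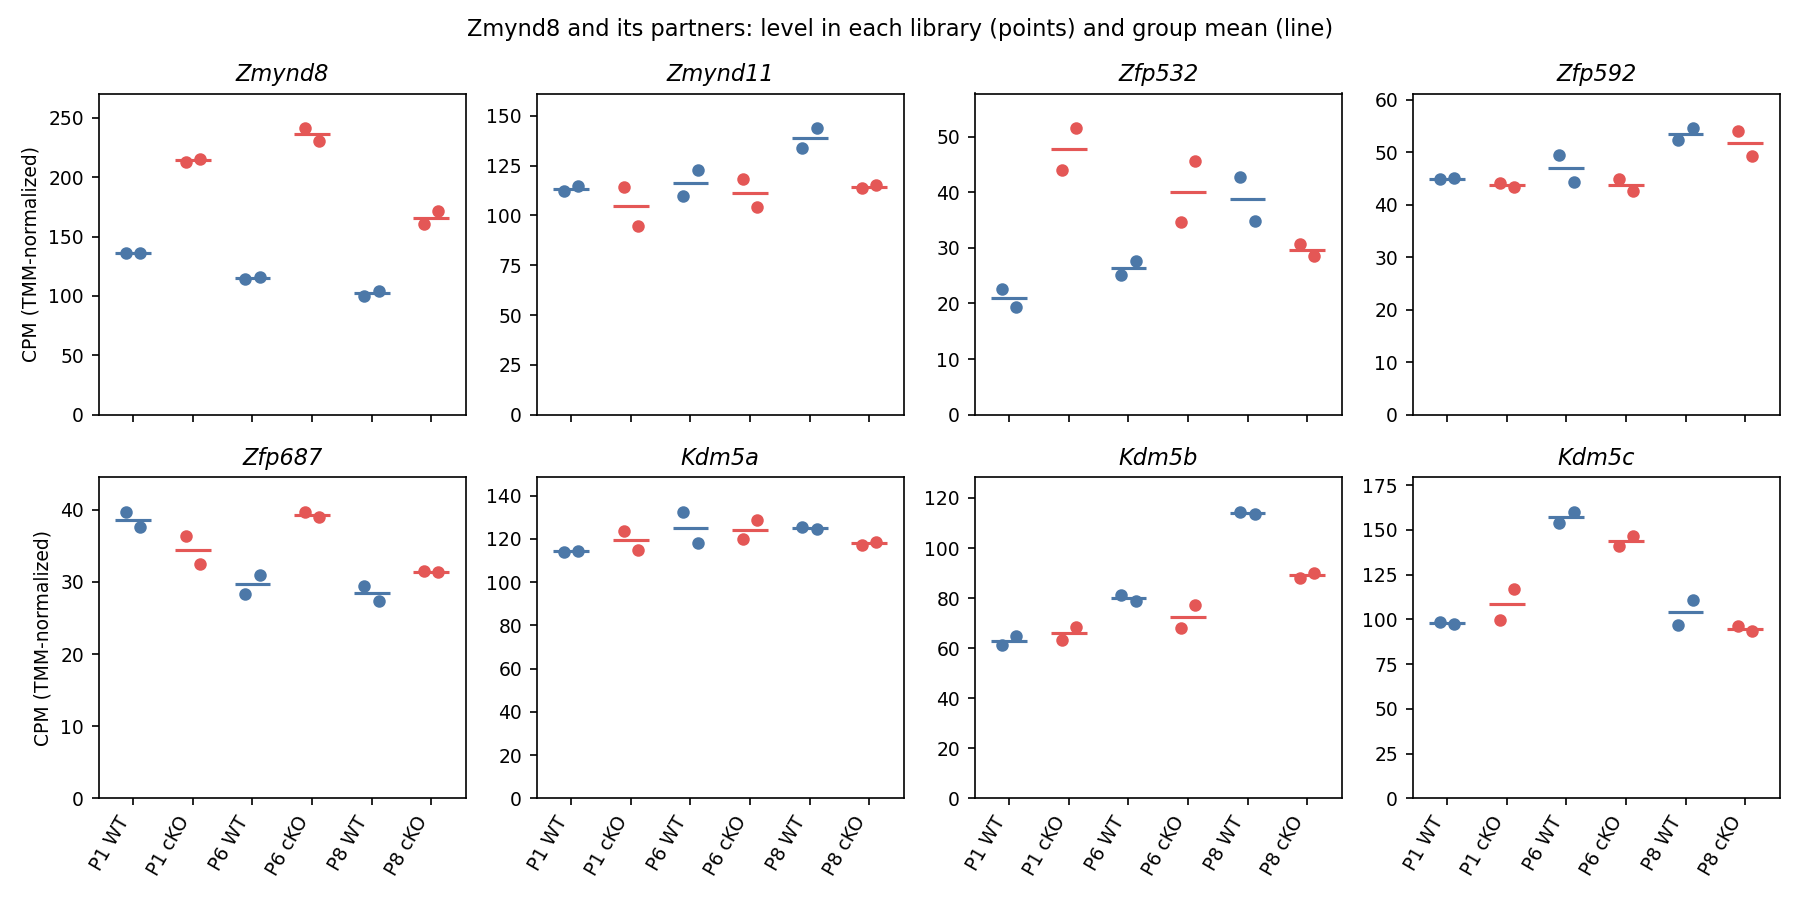
Level of each of the 8 genes (vertical axis, CPM after TMM normalization, each starting at 0) in the 2 libraries of each group (points, blue for the label WT and red for cKO), with the group mean as a line. Zmynd8 lies between 160.4 and 241.5 CPM in the libraries labelled cKO and between 99.98 and 136.3 CPM in those labelled WT, whereas Kdm5a lies between 113.9 and 132.6 CPM in every library.

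Into and out of P6, Zmynd8 took different courses under the 2 labels. In these steps the age and the sex-chromosome make-up of the cultures cannot be told apart. In the libraries labelled WT it fell from P1 to P6 by 0.25 on the log2 scale (SE 0.047, adjusted p = 0.00257) and from P6 to P8 by 0.17 (SE 0.047, adjusted p = 0.0194). In those labelled cKO it rose from P1 to P6 by 0.14 (SE 0.047, adjusted p = 0.0408) and fell from P6 to P8 by 0.51 (SE 0.047, adjusted p = 2.22e-05). The genotype difference at P6 exceeded that at P1 by 0.38 (SE 0.066, adjusted p = 0.00395), and that at P8 was below that at P6, with a difference of -0.34 (SE 0.066, adjusted p = 0.00586). Between P8 and P1, both with Y-linked counts, the genotype differences differed by 0.047, with a 95% interval of -0.10 to 0.20 (adjusted p = 0.676). The rise from P1 to P6 under the label cKO did not pass in 11 of 18 alternative fits, among them those without either P1 library labelled cKO (adjusted p = 0.160 without replicate 1 and 0.115 without replicate 2), and the WT fall from P6 to P8 did not pass in 3 (adjusted p = 0.121 without replicate 1 of P8 WT, 0.0789 without replicate 2 of P6 WT and 0.0671 with the compared groups alone).

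Zmynd11, whose product reads trimethylated lysine 36 of histone H3 in transcribed genes, was not called at any age. The P8 libraries held 134.0 and 144.0 CPM under the label WT and 113.6 and 115.3 CPM under cKO, and did not overlap. The log2 fold change of Zmynd11 at P8 was -0.28 (SE 0.098, adjusted p = 0.0532). It passed the threshold in 8 of 18 alternative fits, with an adjusted p of 0.0402 under DESeq2 size factors and of 0.00419 in DESeq2. At P1 and P6 the labels overlapped, in a range of 94.82 to 122.7 CPM, with log2 fold changes of -0.12 (95% interval -0.34 to 0.10) and -0.063 (95% interval -0.28 to 0.16). The only group of Zmynd11 that stood apart from its neighbour in the order of means was P8 WT, the highest.

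Of the 3 zinc-finger partners, Zfp532 moved most, Zfp687 moved at P6 alone, and Zfp592 was not called between the labels at any age. Zfp532 (ENSMUSG00000042439, GRCm38 chr18:65579912-65689443, plus strand) had 22.65 and 19.32 CPM at P1 under the label WT and 44.02 and 51.61 CPM under cKO. At P6 its levels were 25.15 and 27.71 CPM for WT against 34.63 and 45.68 CPM for cKO. At P8 the order was the other way, with 42.82 and 34.80 CPM for WT and 30.66 and 28.59 CPM for cKO. Both cKO-labelled libraries thus lay above both WT-labelled ones at P1 and P6 and below them at P8.

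The log2 fold change of Zfp532 was 1.19 at P1 (SE 0.16, adjusted p = 0.00163), 0.60 at P6 (SE 0.16, adjusted p = 0.0203) and -0.39 at P8 (SE 0.16, adjusted p = 0.0879), so the gene was called higher at P1 and P6 and was not called at P8. The P8 difference passed in 1 of 18 alternative fits, DESeq2 on all libraries (-0.41, adjusted p = 0.0186). The genotype difference of Zfp532 at P8 was below that at P1 by a log2 difference of -1.58 (95% interval -2.08 to -1.07, adjusted p = 0.000697). Against P6 the difference was -0.99 (95% interval -1.49 to -0.49, adjusted p = 0.0119). The comparison of P8 with P1 does not involve the P6 libraries. In the WT-labelled libraries Zfp532 rose from P6 to P8 by 0.55 (SE 0.16, adjusted p = 0.0230). The P6 difference did not pass without replicate 1 of P6 WT (adjusted p = 0.110), replicate 2 of P6 WT (0.0556) or replicate 2 of P6 cKO (0.134), and the rise from P6 to P8 did not pass without replicate 1 or 2 of P6 WT (0.116 and 0.0568) or replicate 1 of P8 WT (0.149).

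Zfp687 (ENSMUSG00000019338, GRCm38 chr3:95006590-95015448, minus strand) was higher under the label cKO at P6. There it had 28.32 and 31.03 CPM under the label WT and 39.66 and 38.94 CPM under cKO, a log2 fold change of 0.41 (SE 0.082, adjusted p = 0.00599), or 1.32-fold. At P1 the values were 39.73 and 37.55 CPM for WT and 36.40 and 32.42 CPM for cKO, with cKO below WT and a log2 fold change of -0.17 (95% interval -0.35 to 0.019). At P8 they were 29.46 and 27.37 CPM for WT and 31.50 and 31.32 CPM for cKO, with cKO above WT and a log2 fold change of 0.14 (95% interval -0.042 to 0.33). The P6 genotype difference exceeded the P1 one by 0.57 (SE 0.12, adjusted p = 0.00984).

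In the WT-labelled libraries Zfp687 fell from P1 to P6 by 0.38 (SE 0.082, adjusted p = 0.00523), whereas under the label cKO it fell from P6 to P8 by 0.32 (SE 0.082, adjusted p = 0.0119). The latter did not pass without replicate 1 of P6 cKO (adjusted p = 0.0528), replicate 1 of P8 cKO (0.0556) or replicate 2 of P8 cKO (0.0609). Exons of Zfp687 overlap those of Pi4kb, a lipid kinase gene on the other strand, which had 37613 counts over all libraries against 27113 for Zfp687. Without a stated strand setting the 2 genes' reads may be mixed. The log2 fold change of Pi4kb at P6 was -0.10 (95% interval -0.26 to 0.060, adjusted p = 0.360). The part of shared reads in the Zfp687 difference was not tested.

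Zfp592 (ENSMUSG00000005621, GRCm38 chr7:80993681-81045164, plus strand) lay between 42.66 and 54.65 CPM in all 12 libraries. Between the labels its log2 fold changes at the 3 ages in turn were -0.040, -0.10 and -0.049, with 95% intervals of -0.21 to 0.13, -0.27 to 0.066 and -0.21 to 0.12. In the libraries labelled cKO it rose from P6 to P8 by 0.24 (SE 0.073, adjusted p = 0.0282), a call lost without replicate 1 or 2 of P6 cKO (adjusted p = 0.0508 and 0.128), without replicate 1 of P8 cKO (0.188) and with the compared groups alone (0.0857). No neighbouring groups stood apart in the order of its means.

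The level of Zmynd8 was also set against the sum of its zinc-finger partners, per kilobase of annotated exon, which is the scale on which levels of different genes may be compared. At P1 the ratio of Zmynd8 to that sum came to 0.811 and 0.848 for WT and to 1.14 and 1.15 for cKO. At P6 it was 0.725 and 0.735 for WT and 1.32 and 1.20 for cKO, and at P8 0.540 and 0.596 for WT and 0.909 and 1.03 for cKO. The ratio was thus higher in every library labelled cKO than in every library labelled WT. The zinc-finger sum lay between 14.2 and 17.4 CPM per kilobase in all 12 libraries. The ratio therefore largely follows the Zmynd8 level given above and is not a separate result. It is a ratio of gene counts and does not measure the proteins. With the longest transcript as the length, the ratios were 0.841 to 1.35 for WT and 1.44 to 2.06 for cKO, again without overlap.

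**Figure D2:**
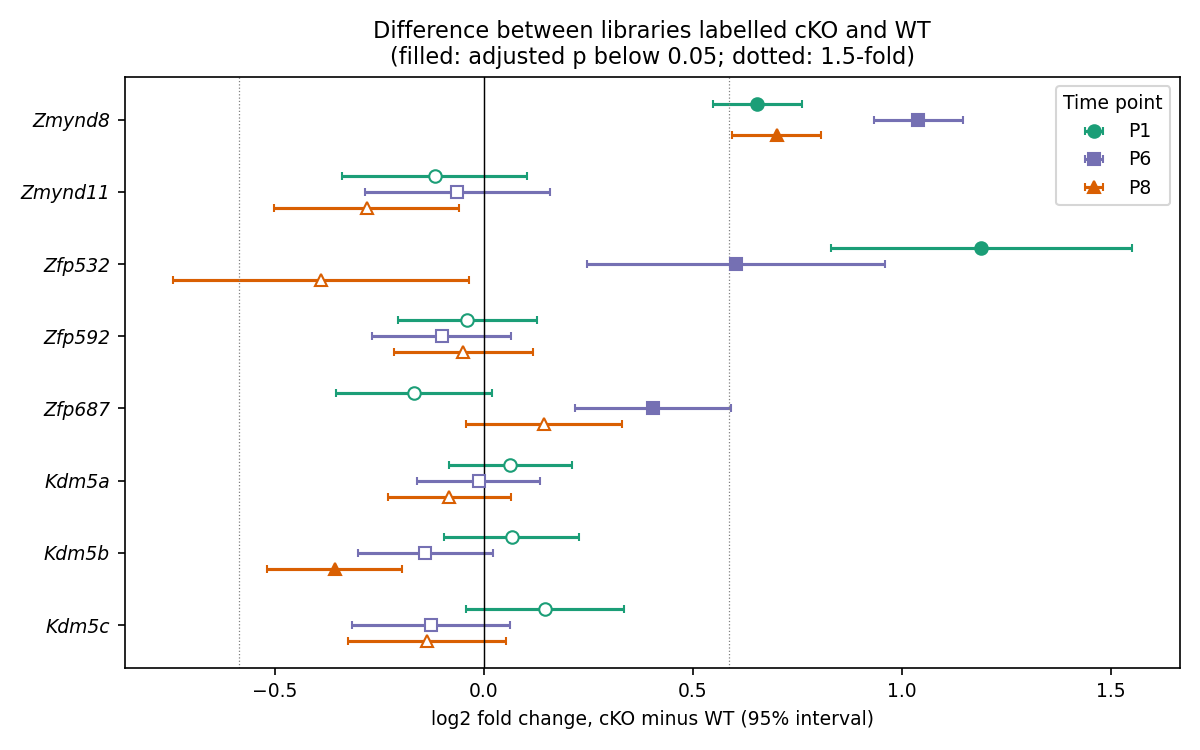
Difference between the libraries labelled cKO and WT for each gene (horizontal axis, log2 fold change with its 95% interval), with P1 as circles, P6 as squares and P8 as triangles. Filled symbols have an adjusted p below 0.05 and dotted lines mark a 1.5-fold difference, and Zfp532 runs from 1.19 at P1 to -0.39 at P8.

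Among the KDM5 genes, Kdm5b was lower under the label cKO at P8 and rose in both steps under the label WT. Kdm5c was highest at P6, and Kdm5a was called in no comparison. Kdm5b (ENSMUSG00000042207, GRCm38 chr1:134560171-134635285, plus strand), a demethylase gene also known from stem cells and tumours, had 61.24 and 64.71 CPM at P1 under the label WT and 63.37 and 68.55 CPM under cKO. At P6 the levels were 81.44 and 78.67 CPM for WT and 67.94 and 77.36 CPM for cKO. At P8 they were 114.5 and 113.5 CPM for WT and 87.89 and 90.19 CPM for cKO. The labels overlapped at P1, and cKO lay below WT at P6 and P8.

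The log2 fold change of Kdm5b was 0.067 at P1 (95% interval -0.095 to 0.23), -0.14 at P6 (95% interval -0.30 to 0.021) and -0.36 at P8 (SE 0.071, adjusted p = 0.00391), the last 0.781-fold. The P8 difference was below the P1 one by a log2 difference of -0.42 (SE 0.10, adjusted p = 0.0134). That call was lost without replicate 1 of P1 WT (adjusted p = 0.0529), replicate 2 of P1 cKO (0.0523) or replicate 1 of P8 cKO (0.0511). Averaged over ages, Kdm5b fell by 0.14 (SE 0.041, adjusted p = 0.0267), and this call was lost without any 1 of 7 libraries, with adjusted p of 0.0528 to 0.0716. Over P1 and P6 alone the average was -0.037 (adjusted p = 0.689).

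Every step tested goes into or out of P6, so the age and the sex-chromosome make-up of the cultures cannot be told apart. In the WT-labelled libraries Kdm5b rose from P1 to P6 by 0.35 (SE 0.071, adjusted p = 0.00406) and from P6 to P8 by 0.51 (SE 0.071, adjusted p = 0.000513). From P1 to P6 under the label cKO Kdm5b was not called (log2 fold change 0.14, adjusted p = 0.160). Under the label cKO it rose from P6 to P8 by 0.29 (SE 0.071, adjusted p = 0.00948), a call lost without replicate 1 of P6 cKO (adjusted p = 0.0598) or replicate 2 of P8 cKO (0.0573). Of the fibroblast markers 6 of 6 were in the table, and their sum, to which Col1a1 and Col1a2 gave most, had the same order of groups as the Kdm5b means. For Kdm5b the P1 cKO libraries overlapped those of P1 WT and of P6 cKO, so the order of these means is not resolved. The sum was 398 to 412 CPM in P1 WT, 2446 to 2477 in P1 cKO, 2509 to 2682 in P6 cKO, 6629 to 6676 in P6 WT, 8179 to 8429 in P8 cKO and 25634 to 25753 in P8 WT. Single markers did not all keep this order, since Dcn, Lum, Col3a1 and Pdgfrb had lower means in P8 cKO than in P6 WT, and Dcn, Lum and Col3a1 lower means in P6 cKO than in P1 cKO. Of these markers Lum was at 0 in P6 cKO, and none was at 0 in the other groups. At P8 the 9 of 9 microglia markers summed to 2457 to 2580 CPM for WT and 5000 to 5007 for cKO, with none at 0, and the astrocyte markers to 1503 to 1878 and 640 to 653 CPM. Of the microglia markers, Tmem119 went the other way at P8 (59.76 CPM for WT and 22.91 for cKO). Of the astrocyte markers, Aldh1l1 did (51.82 and 72.71 CPM). The part of these cells in the Kdm5b differences was not tested.

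**Figure D3:**
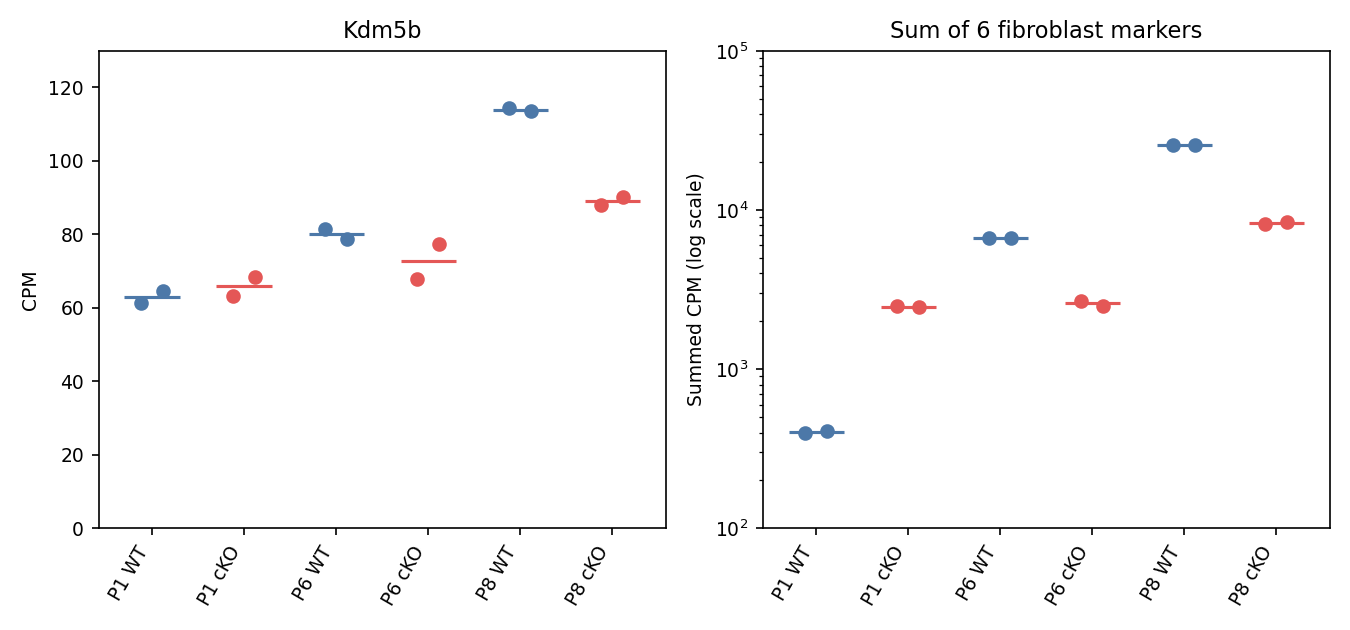
Kdm5b (left, CPM from 0) and the summed level of 6 fibroblast markers (right, CPM on a log axis) in the 2 libraries of each group (points, blue for WT and red for cKO), with group means as lines. Both have their lowest mean in P1 WT, at 61.24 and 64.71 CPM for Kdm5b, and their highest in P8 WT, at 114.5 and 113.5 CPM for Kdm5b. The Kdm5b libraries of P1 cKO overlap those of P1 WT and those of P6 cKO, so the order of these Kdm5b means is not resolved.

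Kdm5a (ENSMUSG00000030180, GRCm38 chr6:120364124-120444574, plus strand), whose product was first known as a partner of the retinoblastoma protein, varied least of the 8 genes, with a highest level 1.16 times its lowest. Its levels were 113.9 to 132.6 CPM over the 12 libraries, and its log2 fold changes between the labels were 0.063 at P1, -0.012 at P6 and -0.083 at P8. Their 95% intervals were -0.084 to 0.21, -0.16 to 0.14 and -0.23 to 0.064, so a 1.5-fold difference, drawn as a dotted line in the plot of genotype differences, lay outside each of them. Exons of Kdm5a overlap those of Ccdc77 on the other strand, which had 8283 counts against 97587 for Kdm5a.

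Kdm5c and Kdm5d are the sex-linked pair of the family, and their counts depend on how reads were told apart. The longest stretch that their coding sequences share without a difference is 35 bases, and it is shown in capitals with 30 bases on each side, as the place where a read is least able to separate them.
Kdm5c: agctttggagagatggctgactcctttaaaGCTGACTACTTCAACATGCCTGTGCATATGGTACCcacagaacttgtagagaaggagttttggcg
Kdm5d: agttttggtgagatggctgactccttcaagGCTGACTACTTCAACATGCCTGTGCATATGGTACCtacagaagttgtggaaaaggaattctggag

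Over 4590 aligned coding bases, 77.4% were identical between Kdm5c and Kdm5d, and 0 of 4613 windows of 50 bases of Kdm5c occurred in Kdm5d. The other pairs within the families were 59.1% to 63.3% identical, also with 0 shared windows of that length. Kdm5d had 0 counts in all 4 P6 libraries, in which Kdm5c had 9268 to 10970, so no reads of Kdm5c were assigned to Kdm5d there. A count of 0 allows up to 3 counts per library, or 0.0438 to 0.0473 CPM, for counting error only.

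Kdm5c (ENSMUSG00000025332, GRCm38 chrX:152233020-152274535, plus strand) was highest at P6 under both labels. Its P6 levels were 153.9 and 160.2 CPM for WT and 141.1 and 146.7 CPM for cKO. At P1 it had 98.54 and 97.40 CPM for WT and 99.70 and 117.1 CPM for cKO, and at P8 97.04 and 110.9 CPM for WT and 96.11 and 93.32 CPM for cKO. Every P6 library lay above every P1 and P8 library.

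In the WT-labelled libraries Kdm5c rose from P1 to P6 by 0.68 (SE 0.084, adjusted p = 0.000173) and fell from P6 to P8 by 0.59 (SE 0.084, adjusted p = 0.000528). Under the label cKO it rose by 0.41 (SE 0.084, adjusted p = 0.00411) and fell by 0.60 (SE 0.084, adjusted p = 0.000345). Between the labels it was not called, with log2 fold changes of 0.15 at P1 (95% interval -0.043 to 0.34), -0.13 at P6 (95% interval -0.31 to 0.063) and -0.13 at P8 (95% interval -0.32 to 0.054). The steps into and out of P6 are those at which Xist and the Y-linked counts changed, and the age and the sex-chromosome make-up cannot be told apart.

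Added together per kilobase of exon, Kdm5c and Kdm5d came to 16.3 to 19.2 in the P1 and P8 libraries, of which Kdm5d was 14.1% to 21.0%, and to 19.9 to 22.5 at P6, where Kdm5d gave nothing. With the longest transcript as the length the sums were 20.2 to 23.9 and 21.9 to 24.8, which overlap, so whether the P6 sum stood apart depends on the length used. For 3 further X-linked genes with a Y-linked counterpart, of which Ddx3x and Eif2s3x were chosen after their values were seen, the median levels at P1, P6 and P8 were as follows. Ddx3x had 358, 611 and 498 CPM, Eif2s3x had 155, 238 and 133 CPM, and Kdm6a had 35.3, 44.7 and 32.2 CPM. All 3 had their highest median at P6.

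**Figure D4:**
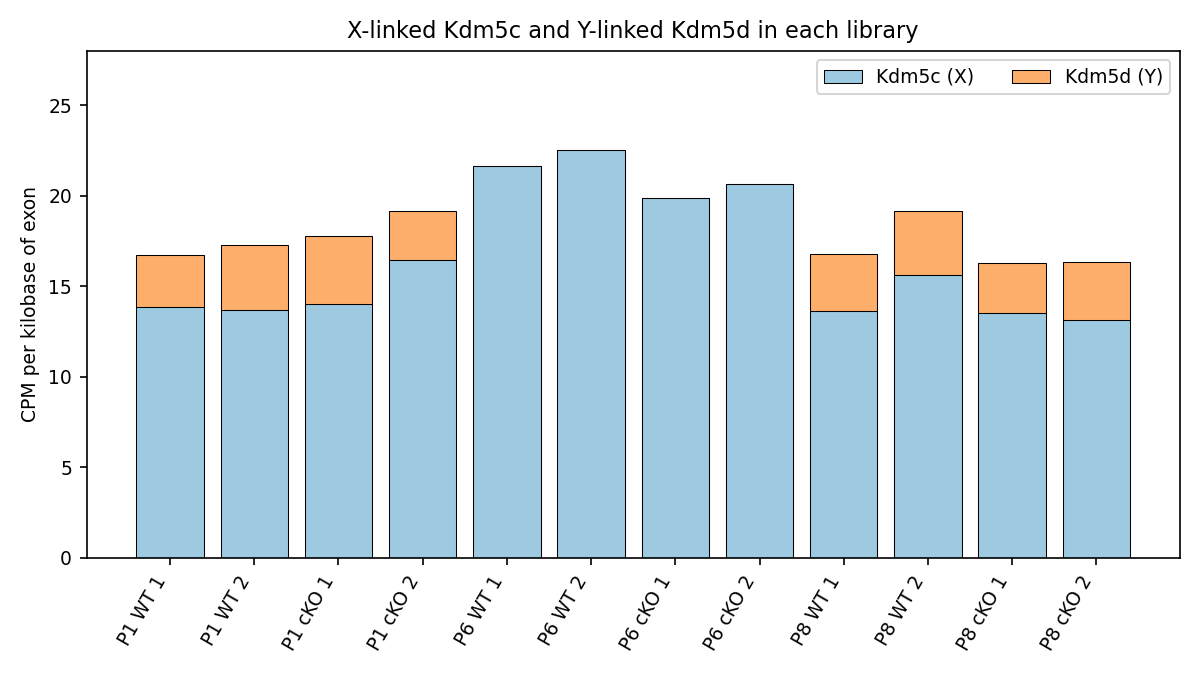
Level of Kdm5c (blue) and Kdm5d (orange) stacked in each of the 12 libraries (vertical axis, CPM per kilobase of annotated exon, from 0). The stacks reach 16.3 to 19.2 in the P1 and P8 libraries and 19.9 to 22.5 in the P6 libraries, which hold no Kdm5d.

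The members' calls were read against those over all genes. At P1, 2 of the 8 genes were called higher and 0 lower, where 6.54% of all genes tested were called higher and 2.94% lower. At P6, 3 were higher and 0 lower, against 13.2% and 12.5% of all genes. At P8, 1 was higher and 1 lower, against 19.6% and 14.8%. Averaged over the ages, 2 were higher (Zmynd8 and Zfp532) and 1 lower (Kdm5b), against 17.7% and 13.5%. The median log2 fold change of the 8 genes was 0.065 at P1, -0.038 at P6, -0.11 at P8 and -0.024 averaged, beside 0, 0, 0.012 and 0.0049 over all genes.

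Genotype differences that changed between ages were called for 2 of the 8 genes between P6 and P1 (15.3% of all genes), for 2 between P8 and P6 (21.5%) and for 2 between P8 and P1 (25.7%). Steps with age were called for 4 of 8 genes from P1 to P6 in WT (39.9% of all genes), for 4 from P6 to P8 in WT (35.3%), for 2 from P1 to P6 under the label cKO (38.5%) and for 5 from P6 to P8 under the label cKO (39.1%). Among so few genes, 1 gene more or less moves these shares widely, and they are given as a description.

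Per kilobase of exon and averaged over the 12 libraries, Kdm5c had the highest level of the 8 genes, at 16.6 CPM per kilobase, above 82.4% of the genes tested. Zmynd8 followed at 14.6, Zmynd11 at 10.6, Kdm5a at 8.55, Zfp592 at 6.40, Zfp687 at 5.65, Kdm5b at 4.88 and Zfp532 at 3.79, the last above 47.2% of the genes tested. The order depends on the length used, and with the longest transcript Zmynd11 and Zmynd8 stood first, at 26.7 and 26.1 CPM per kilobase. The highest library stood 2.67 times above the lowest for Zfp532 and 2.42 times for Zmynd8. The same ratio was 1.87 for Kdm5b, 1.72 for Kdm5c, 1.52 for Zmynd11, 1.45 for Zfp687 and 1.28 for Zfp592.

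Across the 12 libraries, which share their group differences, the log2 levels of Zmynd8 had a Pearson correlation of 0.66 with Zfp687, 0.45 with Zfp532 and -0.60 with Zfp592. With Zmynd11 it was -0.65, with Kdm5b -0.57, with Kdm5a -0.15 and with Kdm5c 0.089. The strongest correlations among the partners were 0.83 between Zfp592 and Kdm5b and -0.79 between Zfp687 and Kdm5b. Of 15145 genes with a mean of at least 1 CPM, the 5 most like Zmynd8 over these libraries were Slc12a8, a solute carrier gene (Pearson 0.99), Rdh5, a retinol dehydrogenase gene (0.98), and the genes AC112142.1 (0.98), A430105I19Rik (0.98) and 3930402G23Rik (0.97). Slc12a8 had group means of 3.42, 1.82 and 1.04 CPM for WT at P1, P6 and P8, and of 19.4, 23.9 and 6.46 CPM for cKO. Rdh5 had 7.42, 5.38 and 3.41 CPM for WT and 26.5, 27.5 and 9.58 CPM for cKO. By Spearman correlation, 2 of these 5 genes (Rdh5 and AC112142.1) stayed among the first 5.

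Genes of related chromatin complexes were counted in the same fit. Of the 15 NuRD subunits, 2 were higher and 0 lower at P1, 2 and 2 at P6, 3 and 3 at P8, and 3 and 4 averaged over the ages, beside the shares of all genes called higher and lower (6.54% and 2.94%, 13.2% and 12.5%, 19.6% and 14.8%, and 17.7% and 13.5%, in that order). Chd3, an ATPase of NuRD, had group means of 111.8, 261.8 and 401.1 CPM for WT at the successive ages and of 123.1, 212.3 and 277.3 CPM for cKO. It was called higher at P1 (log2 fold change 0.14, adjusted p = 0.0439) and lower at P6 (-0.30, adjusted p = 0.000260) and P8 (-0.53, adjusted p = 4.09e-06). Chd5, a further ATPase of that family, was also higher at P1 (0.69, adjusted p = 0.0443) and lower at P8 (-1.57, adjusted p = 0.000127), from 10.5 CPM for WT to 3.55 for cKO. Gatad2a, a subunit that links the deacetylase and ATPase modules, had averaged 0.21 (adjusted p = 0.00515), and the other averaged calls were Chd4 and Mbd2 higher (0.096 and 0.12) and Hdac2 and Mta2 lower (-0.12 and -0.086), named because the count was small.

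Of the 8 LSD1 and CoREST genes, which act on the same histone lysine as KDM5, 0 were called at P1, at P6 or averaged over the ages (edgeR, adjusted p below 0.05). Of all genes tested, 6.54% were higher and 2.94% lower at P1, 13.2% and 12.5% at P6, and 17.7% and 13.5% averaged. For lists this small the counts are given as a description. Averaged over the ages 1 of 15 other JmjC demethylase genes was higher and 1 lower, against the same averaged shares. Kdm7a, for an enzyme that acts on lysines 9 and 27 of histone H3, had averaged 0.31 (adjusted p = 0.00168), and Kdm4a, for one that acts on lysines 9 and 36, -0.13 (adjusted p = 0.0180). An average does not show calls at single ages. Kdm6b, named for its opposite calls, was higher at P1 (0.375, adjusted p = 0.0170) and lower at P8 (-0.40, adjusted p = 0.00328). Of all genes, 6.54% were higher at P1 and 14.8% lower at P8. Of 16 other MYND-finger genes tested, 2 were higher and 1 lower averaged over the ages, again beside 17.7% and 13.5% of all genes. Smyd4, which encodes a methyltransferase-like protein, had averaged 0.56 (adjusted p = 0.00230), with 8.09 CPM for WT and 15.5 for cKO at P6. Egln1, for the oxygen-sensing prolyl hydroxylase, had 0.26 (adjusted p = 0.000298), and Deaf1, a transcription factor gene, -0.27 (adjusted p = 0.0151). Of 11 PRC2 subunits, 0 were called at P1 and P6, to be read beside the P1 and P6 shares of all genes given above. Ezh2 was lower at P8 (-0.37, adjusted p = 0.0149), where 14.8% of all genes were lower. Jarid2 was lower on average (-0.20, adjusted p = 0.0420), where 13.5% were. The median averaged log2 fold change was 0.011 for NuRD, -0.095 for LSD1 and CoREST, -0.052 for JmjC, -0.0071 for MYND-finger and -0.074 for PRC2 genes, beside 0.0049 over all genes.

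**Figure D5:**
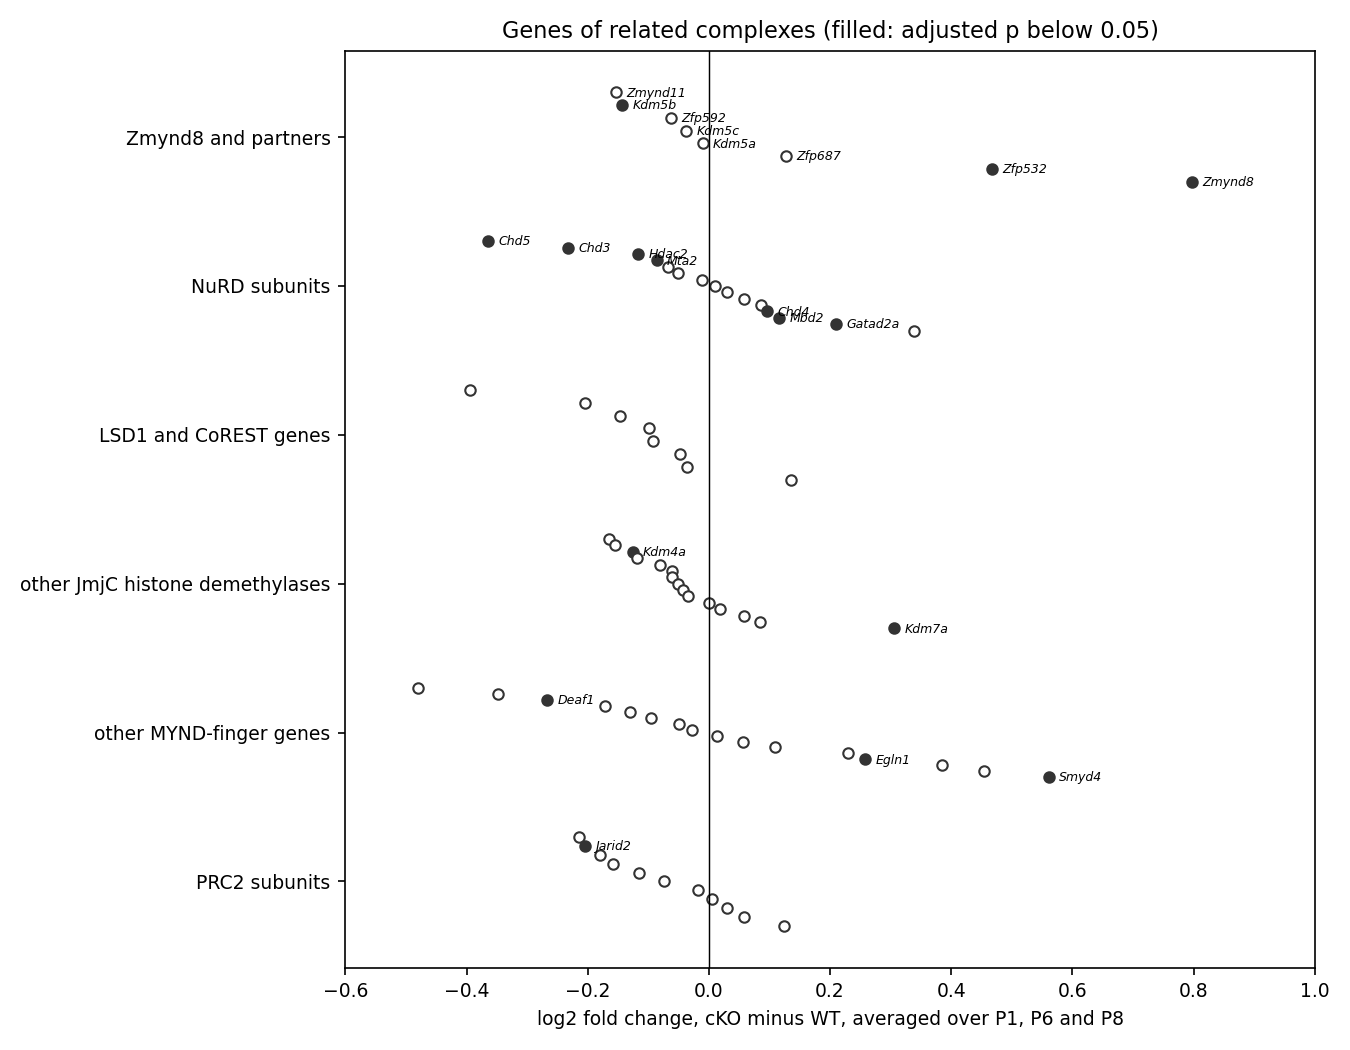
Averaged difference between the labels cKO and WT (horizontal axis, log2 fold change over P1, P6 and P8) for each gene of the sets named on the vertical axis, filled where the adjusted p was below 0.05. Zmynd8 at 0.80 lies to the right of every other gene drawn, Smyd4 is next at 0.56, and no LSD1 or CoREST gene is filled.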

How the data were processed

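RNA-seq of cultured astrocytes gave 12 libraries, for which the authors deposited raw counts of reads per gene. Reads had been mapped with Hisat2 to GRCm38 (mm10 in the submitters' processing notes). The counter, annotation and strand setting were not given in the sources used here. Per the methods, ballgown and DESeq2 served for the authors' own tests.

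Counts were normalized by TMM (factors 0.943 to 1.07) and fitted in R 4.3.3 with edgeR 4.0.16 and limma 3.58.1, with 1 mean for each of 6 groups and no covariate, after filterByExpr. The common biological coefficient of variation was 0.178. The SE was the log2 fold change over the square root of F. Calls needed an adjusted p below 0.05. Between replicates, chi-square divided by its degrees of freedom was 30.5 to 47.1, so none was counted as a duplicate. Positions, exon lengths and coding sequences came from GRCm38 and GENCODE vM21, which held 18861 of the identifiers, and protein sequences were not analysed here. CPM per kilobase used the union of exons.

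The 8 genes and the lists were chosen with earlier results of these data known. Named were the 8 genes, up to 3 genes per list with the largest averaged effect among those called, the 5 genes most correlated with Zmynd8 (mean of at least 1 CPM), and overlapping genes. Kdm4d, Cbfa2t3, Smyd1 and Ankmy1 of the lists were not analysed here, and a result of the lists at P8 is not reported here. Alternatives were DESeq2 1.42.0 and its size factors, upper-quartile factors, no filter, compared groups alone, a replicate block, a 1.5-fold cut-off and each library left out. Averages over fewer ages were added after seeing the data. The fits were tested on simulated data.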

Additional observations from a re-analysis of the deposited data

Results flagged for a closer look

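For 6 results the difference between cKO and WT changed between ages by a test of the interaction itself (edgeR, adjusted over all genes). The Zmynd8 difference at P6 exceeded that at P1 by 0.38 on the log2 scale (adjusted p = 0.00395) and that at P8 was below the P6 one, with -0.34 (adjusted p = 0.00586). The Zfp687 difference at P6 exceeded that at P1 by 0.57 (adjusted p = 0.00984). For Zfp532 the P8 difference was below the P6 one, with -0.99 (adjusted p = 0.0119), and below the P1 one, with -1.58 (adjusted p = 0.000697). For Kdm5b the P8 difference was below the P1 one, with -0.42 (adjusted p = 0.0134). The first 4 of these involve the P6 libraries, which had Xist and no Kdm5d counts.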

How the results depend on the processing

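The 8 genes had 1351 to 15860 counts in every library, so precision was limited by the 2 libraries per group more than by depth. Over 88 single-gene results and 1592 alternative values, 41 lost a call, 36 gained one and 0 called values reversed. In 48 the sign differed where neither value was called. The Zmynd8 differences at P1, P6 and P8, the Zfp532 difference at P1 and its interaction between P8 and P1, the Zfp687 difference at P6 and the Kdm5b difference at P8 kept their calls in all 18 alternatives each.

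Counts of the 8 genes called moved as follows, where fits without a library take the spread of a lone replicate from the other groups. At P8 the 2 became 4 in DESeq2 and 1 under either rule with a 1.5-fold change, and the averaged 3 became 5 and 1. For the interactions, the 2 between P6 and P1 became 1 with an unadjusted p and 1.5-fold and 0 with an adjusted p and 1.5-fold, the 2 between P8 and P6 became 1 under both, and the 2 between P8 and P1 became 4 in DESeq2 and 1 under both, with 1 to 4 without single libraries. With the 1.5-fold rules, the WT steps (4 and 4) became 1 and 1, and the cKO steps (2 and 5) became 0 and 1. Without single libraries the WT step from P6 to P8 gave 2 to 5, the cKO step from P1 to P6 gave 1 to 2 and the cKO step from P6 to P8 gave 3 to 6. The cKO step from P1 to P6 gave 1 with the compared groups alone.

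Same-numbered replicates did not deviate together (correlations of -0.064 to 0.040 between groups), so the numbers pair no samples. With the replicate block the cKO step from P1 to P6 gave 1 call in place of 2, since Zmynd8 had an adjusted p of 0.0532, and no other call of the 8 genes changed. With the longest transcript as the length, levels per kilobase were 26.1 for Zmynd8, 26.7 for Zmynd11, 5.06 for Zfp532, 6.46 for Zfp687, 11.1 for Kdm5a, 9.27 for Kdm5b and 18.2 for Kdm5c. Of the 5 genes most like Zmynd8, Spearman correlation kept 2. The causes were not tested.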
